A study of Solanum lycopersicum with 12 samples.

Results

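The genes described here are tomato (Solanum lycopersicum) stem genes whose annotation names the EF-hand, a helix-loop-helix fold that binds calcium. They were taken from the deposited tables wherever the protein name or a domain name held the text EF-hand or Calmodulin-like, in any case, without Leucine-rich repeat. The rule took 79 of 6120 genes. Of these, 53 have an EF-hand domain, domain pair or calcium-binding site entry of their own. The other 26 were caught because a domain name reads IQ motif, EF-hand binding site. An IQ motif does not bind calcium but is a docking site for EF-hand proteins such as calmodulin, so these genes do not meet the label of calcium sensors and are described apart as IQ motif genes. No gene in the tables held the text Calmodulin-like in its name. For 48 of the 79 genes the name is only Uncharacterized protein or a domain name, and the other names come from the closest database entry, often of another plant species.

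Plant cells answer touch, bending and load with a rapid rise of free calcium in the cytosol. EF-hand proteins read that rise: calmodulin changes shape on binding calcium and then clasps target proteins, calcium-dependent kinases carry the sensor and the kinase in a single chain, and respiratory burst oxidases are switched on to make superoxide outside the cell. In Arabidopsis, genes found to respond to touch include those of calmodulin and calmodulin-like proteins. These tables measure the transcripts of such proteins and say nothing of calcium itself.

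RNA was sequenced from stems of the cultivar Ailsa Craig, with no transgene named in the labels. Plants with stems of 4.5 to 5 cm, grown at about 28 °C with 16 h of light, carried a wooden clamp of 3 g at the stem top for 48 h, and control plants carried none. Control and weighted stems were collected at 6 h and at 10 days, with 3 libraries per group and 12 in all. The later collection was 10 days after the clamp was taken off. For the earlier one the sources differ: the series' design text counts the 6 h from the start of the load, with the clamp still on, while the sample labels call it post treatment. The labels name biological replicates but not how many plants each held. Because the labels file the collection as a batch, plant age and collection cannot be told apart.

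Values are FPKM, fragments scaled by transcript length and library size, and depth is unknown. There were 5346 genes in the 6 h table and 1146 genes in that for 10 days, and each gives all 12 libraries. Both tables were selected: the authors' legible Q value was under 0.05 for all 3020 genes where it could be read in the 6 h table and for 908 of 909 in that for 10 days. Across genes of the 6 h table, log2 values of replicates correlated at 0.977 or more, except control replicates 1 and 2 at 10 days (0.948), and the closest pair was weighted replicates 1 and 2 at 10 days (0.998). Marker lists for xylem, phloem, stem surface and green tissue held 9, 6, 36 and 30 genes, and all but 1 phloem gene reached 1 FPKM in some library. The summed FPKM of the green tissue list moved with the load at 6 h, from 17969 to 25101 in control libraries and from 8296 to 9313 in weighted ones. The stem surface sum moved the other way at 6 h, from 6805 to 7147 in control and from 7358 to 7984 in weighted libraries, and the phloem sum overlapped (90 to 150 against 92 to 120). The xylem sum was 117 to 172 in control and 76 to 109 in weighted libraries at 6 h, and 299 to 329 against 437 to 472 at 10 days. The marker genes come from the same selected tables, so a separation of their sums between weighted and control libraries follows in part from that selection. It cannot show a change in tissue make-up. The part of these shifts in the results that follow was not tested. In whole stems fewer cells of a type and less RNA per cell cannot be told apart.

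At 6 h the EF-hand proteins were split evenly between higher and lower transcript levels, while IQ motif genes were mostly lower in weighted stems. Both calmodulin genes, the calcineurin B-like gene and both genes of tandem-pore potassium channels rose, and all tested genes of KIC type proteins, phospholipase C and sodium/calcium exchangers fell. The 6 h table held 70 of the 79 genes, and 64 passed the filter, a minimum of 1 FPKM in 3 or more of the libraries compared. All 64 passed limma at an adjusted p under 0.05, against 99.3% of the 5028 genes tested. That count follows from how the table was selected and says nothing about these genes. Among 43 EF-hand proteins there were 22 rises and 21 falls, and the median log2 fold change was 0.27. Among 21 IQ motif genes there were 4 rises and 17 falls, and the median was -0.56. Over all tested genes 47.9% rose and 51.4% fell, and the median was -0.27. Changes were mostly small: the median absolute log2 fold change was 0.55, as it was over all tested genes, and 5 of the 64 changed by 1 or more (7.81%, against 14.4% of all tested genes). Weighted and control libraries did not overlap in 62 of the 64 genes, against 95.5% of all tested genes, of which 47.3% had all weighted libraries higher and 48.2% all lower. The exceptions were a kinase and an exchanger gene described where they are named.

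**Figure D1:**
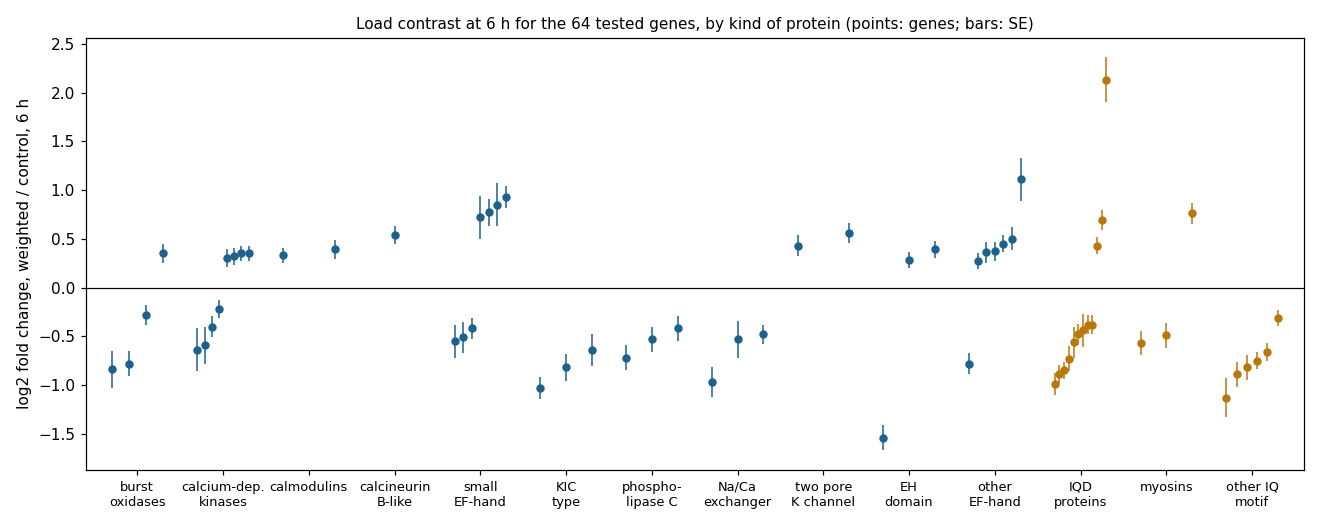
Log2 fold change of weighted over control stems at 6 h for the 64 tested genes, grouped by kind of protein; points are genes, bars the standard error from limma, blue EF-hand proteins and ochre IQ motif genes. Calmodulins and channels lie above 0, KIC type, phospholipase C and exchanger genes below 0, and the highest point is an IQD gene at 2.13.

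Calmodulin is the most widely used calcium sensor of plant cells, and both genes named calmodulin 7 were abundant. Solyc11g072240.2 stood at 566, 539 and 563 FPKM in control stems and at 702, 655 and 748 FPKM in weighted stems at 6 h. The groups did not overlap, and the log2 fold change was 0.33 (SE 0.08, limma adjusted p = 0.00856). Its values at 10 days were lower in all libraries, from 276 to 407 FPKM in control and from 289 to 319 FPKM in weighted stems. The second calmodulin gene, Solyc12g099990.2, stood at 149, 145 and 161 FPKM in control and at 184, 188 and 226 FPKM in weighted stems at 6 h. Here too each weighted library lay above each control library (log2 fold change 0.39, SE 0.10, limma adjusted p = 0.0105). At 10 days its values ran from 110 to 144 FPKM in control and from 120 to 130 FPKM in weighted stems, and the groups overlapped. The names are the same and how reads shared by similar genes were counted is not given in the sources used here, so the level of each is uncertain.

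Calcineurin B-like proteins pass the calcium signal to a family of partner kinases, and in Arabidopsis calcineurin B-like 10 works with the kinase SOS2 in salt tolerance. The tomato gene of that name, Solyc08g065330.3, had 6.97, 6.42 and 6.68 FPKM in control stems and 10.0, 9.60 and 10.9 FPKM in weighted stems at 6 h. It rose with the load at that time (log2 fold change 0.54, SE 0.09, limma adjusted p = 0.00238). Its 10 day values were 8.24, 7.97 and 7.98 FPKM in control and 10.5, 11.8 and 9.06 FPKM in weighted stems. These groups did not overlap either, but the difference did not pass (log2 fold change 0.33, SE 0.13, limma adjusted p = 0.271).

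Calcium-dependent kinases phosphorylate ion channels, oxidases and transcription factors once calcium has bound to their own EF-hands. Of 12 such genes 10 were in the 6 h table and 8 were tested there, of which 4 rose and 4 fell, with log2 fold changes from -0.64 to 0.35. The most abundant, Solyc03g033540.3, had 152, 90.1 and 144 FPKM in control and 66.9, 94.7 and 81.3 FPKM in weighted stems. Control replicate 2 lay inside the range of the weighted libraries, and the log2 fold change was -0.64 (SE 0.22, limma adjusted p = 0.0229). That call ended without control replicate 1 or 3 or weighted replicate 1 or 3 (limma adjusted p from 0.0514 to 0.08). Solyc02g090510.3, whose text gives an EF-hand pair but no EF-hand domain entry, went from 21.4, 22.7 and 20.1 FPKM to 18.4, 19.1 and 17.3 FPKM. Its fall of 0.22 on the log2 scale (SE 0.09, limma adjusted p = 0.0456) was lost in 5 of the 6 fits that left out a library, with the replicate block (0.0924), with equalised totals (0.0901) and with median-ratio scaling (0.175, all limma adjusted p).

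The kinases that rose did so by about the same amount. Calcium-dependent protein kinase 4 (Solyc05g056570.3) went from 20.6, 22.3 and 23.0 FPKM to 28.6, 27.3 and 28.6 FPKM. The SK5-like gene Solyc04g049160.3 had 12.9, 13.8 and 13.8 FPKM in control and 18.0, 16.7 and 17.9 FPKM in weighted stems. For the 11-like gene Solyc11g018610.2 the values were 11.8, 11.1 and 12.8 FPKM against 14.5, 15.1 and 15.4 FPKM. In these genes and in the next, weighted and control libraries did not overlap. Calcium-dependent protein kinase 8 (Solyc11g065660.2) had 8.72, 7.76 and 8.25 FPKM in control and 10.6, 10.4 and 10.0 FPKM in weighted stems. The log2 fold changes of the 4 genes were 0.35, 0.35, 0.32 and 0.30, with limma adjusted p from 0.00708 to 0.0145. The 20-like gene Solyc10g076900.3 and the 17-like gene Solyc12g099790.3, both under 4 FPKM in all libraries, fell by 0.40 and 0.59. The remaining 2 kinases of the 6 h table, Solyc01g096820.4 and Solyc06g065380.4, stayed near or under 1 FPKM and were not tested.

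Respiratory burst oxidases carry EF-hands on the cytosolic side and make superoxide at the plasma membrane. All 6 genes were in the 6 h table, 4 were tested, and 3 of those fell at 6 h. The unnamed oxidase gene Solyc06g068690.4 had 9.38, 7.01 and 7.14 FPKM in control and 3.79, 4.26 and 4.33 FPKM in weighted stems (-0.78 ± 0.13 as log2 fold change with SE, limma adjusted p = 0.00207). Its annotation also names an amidase signature domain, and its identifier is close to that of homolog D, so its level is uncertain. The homolog E-like gene Solyc07g042460.2 went from 4.53, 5.75 and 5.12 FPKM to 2.27, 1.73 and 3.49 FPKM (log2 fold change -0.84, SE 0.19, limma adjusted p = 0.00579). Homolog D, Solyc06g068680.3, the most abundant oxidase at 6 h, had 25.3, 23.1 and 21.1 FPKM in control and 19.8, 18.5 and 18.3 FPKM in weighted stems. No library of these 3 genes crossed between the groups, but the fall of homolog D was small (-0.28, SE 0.10, limma adjusted p = 0.0247) and was not called without control replicate 1 or 2 or weighted replicate 2 or 3 (limma adjusted p from 0.0537 to 0.0852), with the replicate block (0.0514) or with median-ratio scaling (-0.21, limma adjusted p = 0.074).

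Homolog A, Solyc08g081690.3, was low at 6 h and moved the other way, from 1.99, 2.0 and 1.79 FPKM to 2.85, 2.93 and 2.43 FPKM (log2 fold change 0.35, SE 0.10, limma adjusted p = 0.014). Homolog B, Solyc01g099620.3, had 0.35, 0.30 and 0.28 FPKM in control and 0.51, 0.78 and 0.70 FPKM in weighted stems. Protein e, Solyc05g025680.3, had 0.03, 0.04 and 0.02 FPKM in control and 0.15, 0.09 and 0.11 FPKM in weighted stems. Neither of these last genes reached 1 FPKM in any library, so neither was tested.

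At 10 days the order of the oxidases was another. Homolog A stood at 14.3, 24.4 and 18.0 FPKM in control and 28.0, 26.5 and 16.8 FPKM in weighted stems, and the E-like gene at 13.6, 27.9 and 14.9 against 25.5, 21.1 and 15.7 FPKM. The unnamed oxidase had 12.2, 11.1 and 10.7 FPKM in control and 19.1, 20.7 and 10.5 FPKM in weighted stems. Homolog D had the lowest mean of the tested genes in control stems, with 12.1, 9.23 and 11.7 FPKM, against 14.6, 13.2 and 11.5 FPKM in weighted stems. The libraries of the 4 genes overlapped between weighted and control stems at 10 days, weighted replicate 3 being low in each. Homolog B and protein e stayed between 0.41 and 0.90 FPKM and between 0.06 and 0.16 FPKM. Within control stems homolog A was 9.82-fold higher at 10 days than at 6 h (2.74 ± 0.19 as log2 fold change with SE, limma adjusted p = 7.25e-05), the E-like gene rose by 1.63 and the unnamed oxidase by 0.49, and homolog D fell by 1.01 on the log2 scale. The rise of the unnamed oxidase was not called without control replicate 2 or 3 at 6 h or control replicate 1 or 3 at 10 days (limma adjusted p from 0.051 to 0.0757).

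**Figure D2:**
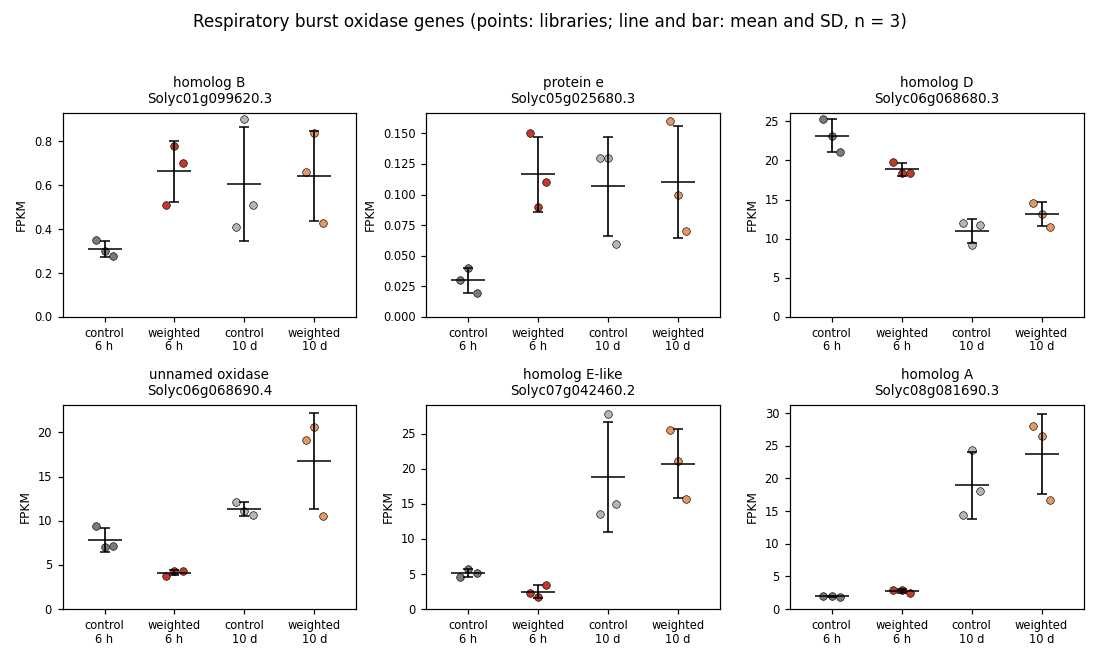
FPKM of the 6 respiratory burst oxidase genes in each library by group; points are libraries, lines the group means and bars the SD (n = 3), with a separate vertical scale from 0 in each panel. Homolog A and the E-like gene are far higher at 10 days than at 6 h, homolog D is highest in control stems at 6 h, and homolog B and protein e stay under 1 FPKM.

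Proteins with EF-hands and no other named domain made up 9 genes. They are called small EF-hand genes here, but protein length was not checked. The 6 h table held 7, of which 4 rose and 3 fell. Solyc01g010020.3 had 7.16, 8.07 and 6.94 FPKM in control and 13.2, 16.6 and 15.2 FPKM in weighted stems (log2 fold change 0.93, SE 0.11, limma adjusted p = 0.000799). Solyc01g111040.4 went from 7.33, 5.29 and 10.7 FPKM to 16.1, 12.9 and 14.0 FPKM (log2 fold change 0.85, SE 0.22, limma adjusted p = 0.00906). In both genes the lowest weighted library lay above the highest control library. Solyc06g073830.1 had 61.1, 36.6 and 61.7 FPKM in control and 79.2, 77.4 and 102 FPKM in weighted stems (0.72 ± 0.22 as log2 fold change with SE, limma adjusted p = 0.015). Without control replicate 2, the lowest library, its log2 fold change was 0.47 and still passed. The fourth that rose, Solyc03g115930.3, annotated only as a calcium ion binding protein, went up by 0.77 from a mean of 1.97 FPKM. Solyc10g005750.3, Solyc01g005370.3 and Solyc01g073710.2 fell by 0.42, 0.51 and 0.55 on the log2 scale.

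The KIC type proteins have an EF-hand and resemble Arabidopsis KIC, which binds a kinesin-like protein, and PBP1, which binds the kinase PINOID of auxin transport. All 3 genes fell at 6 h. Solyc10g006740.4 had 20.8, 17.8 and 16.3 FPKM in control and 8.21, 9.08 and 7.92 FPKM in weighted stems (log2 fold change -1.03, SE 0.11, limma adjusted p = 0.000571). Solyc02g079520.3 went from 10.9, 13.6 and 9.34 FPKM to 5.54, 6.32 and 5.76 FPKM (-0.82 ± 0.14 as log2 fold change with SE, limma adjusted p = 0.00225). The third, Solyc10g009340.1, was far more abundant, at a mean of 179 ± 16.6 FPKM in control and 116 ± 25.5 FPKM in weighted stems (SD, n = 3), and fell by 0.64 on the log2 scale. In no KIC type gene did the groups overlap at 6 h.

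Among enzymes and carriers of the calcium signal, all 3 genes of phosphoinositide phospholipase C, which splits membrane phosphoinositides, fell at 6 h, by 0.42, 0.53 and 0.72 on the log2 scale. All 3 genes with a sodium/calcium exchanger domain, which moves calcium across membranes, fell as well. Among these, Solyc03g006260.4 had 10.1, 10.3 and 8.07 FPKM in control and 5.12, 3.42 and 4.60 FPKM in weighted stems (-0.97 ± 0.15 as log2 fold change with SE, limma adjusted p = 0.00179). The abundant exchanger gene Solyc07g062700.3, at a mean of 343 ± 66.3 FPKM in control and 238 ± 45.0 FPKM in weighted stems (SD, n = 3), fell by 0.53, with control replicate 2 (267 FPKM) below weighted replicate 2 (273 FPKM). Tandem-pore potassium channels release potassium from the vacuole when calcium rises, and both genes rose, Solyc02g071140.3 by 0.56 and Solyc10g006010.3 by 0.43.

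EH domain proteins act in endocytosis and the recycling of membrane proteins. The EH domain 1-like gene Solyc11g012020.2 showed the largest fall of all 64 tested genes, from 21.5, 28.2 and 28.7 FPKM in control to 7.57, 8.93 and 8.37 FPKM in weighted stems. The weighted mean was 3.15-fold lower (-1.54 ± 0.13 as log2 fold change with SE, limma adjusted p = 0.000294). The other EH domain genes of the 6 h table, Solyc04g082560.4 and Solyc08g007160.3, rose by 0.28 and 0.39. The largest rise among EF-hand proteins was in Solyc02g079170.3, an NADH:ubiquinone reductase of the non-electrogenic kind, which feeds electrons into the mitochondrial chain without pumping protons. It had 7.38, 5.08 and 10.9 FPKM in control and 16.8, 17.4 and 17.6 FPKM in weighted stems (log2 fold change 1.11, SE 0.22, limma adjusted p = 0.004), and the weighted libraries varied less than the control ones.

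The remaining EF-hand genes changed by less. Genes of LETM1, a mitochondrial membrane protein, of nicalin, of the NO VEIN protein and of a regulatory subunit of protein phosphatase 2A rose by 0.50, 0.45, 0.37 and 0.27 on the log2 scale. The CARP1-domain gene Solyc04g008680.4 rose by 0.36. The gene of condensin complex subunit 3 (Solyc11g011370.2), part of the machinery that compacts chromosomes at division, fell by 0.78. For the condensin, nicalin and NO VEIN genes the annotation gives only an EF-hand calcium-binding site, without an EF-hand domain or domain pair. Whether these proteins carry an EF-hand is uncertain. A dioxygenase gene with an EF-hand, Solyc01g105650.4, had values from 0 to 2.46 FPKM with no order by group and was not tested.

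**Figure D3:**
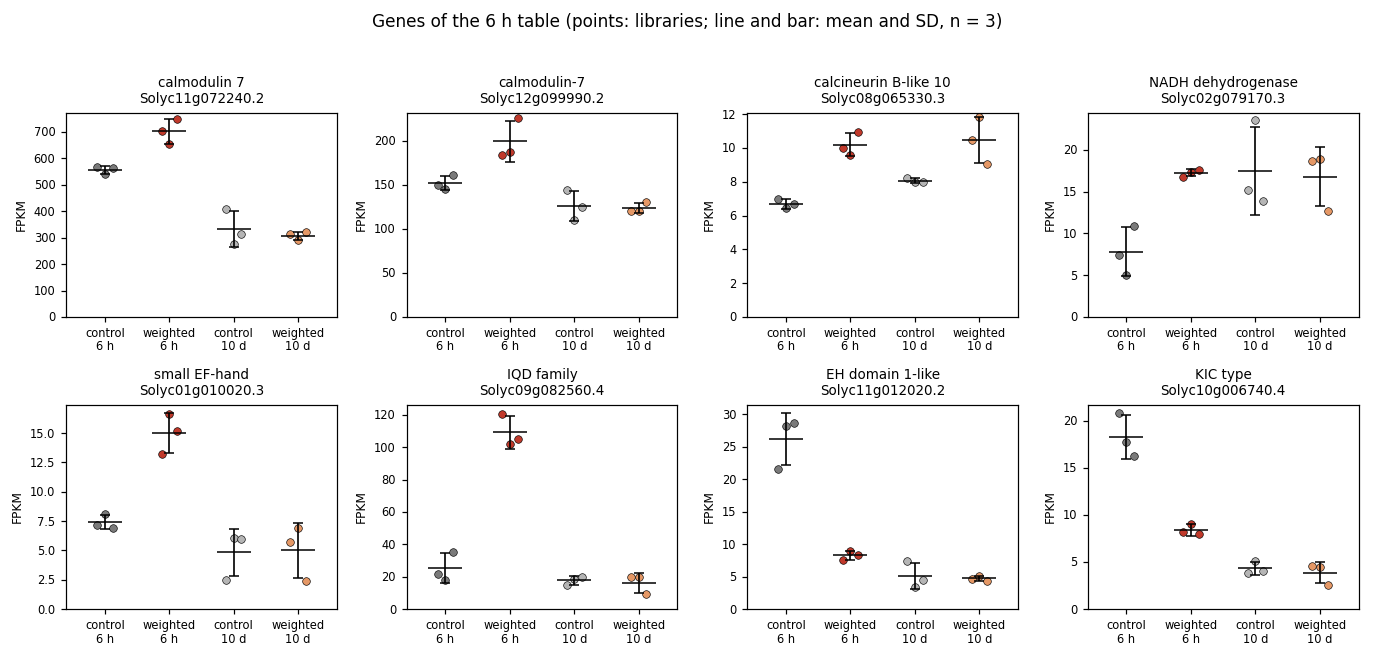
FPKM in each library for 8 genes of the 6 h table by group; points are libraries, lines the group means and bars the SD (n = 3), each panel from 0. At 6 h the calmodulin, calcineurin B-like, NADH dehydrogenase, small EF-hand and IQD genes lie higher in weighted stems, and the EH domain and KIC type genes lie lower, with no overlap in any panel.

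IQ motif genes encode proteins that calmodulin binds. IQD proteins, which place calmodulin at microtubules and membranes and include the SUN protein of tomato fruit shape, made up 13 of the 26, and 12 were tested. Of these 3 rose and 9 fell. Solyc09g082560.4 rose most of all 64 tested genes, from 22.0, 18.0 and 35.5 FPKM in control to 121, 102 and 105 FPKM in weighted stems. The weighted mean was 4.34-fold higher (log2 fold change 2.13, SE 0.23, limma adjusted p = 0.00051). At 10 days the same gene had 14.8, 18.6 and 19.8 FPKM in control and 20.1, 19.7 and 9.23 FPKM in weighted stems, and the groups overlapped.

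The other IQD genes that rose were Solyc01g088250.4, from 19.3, 15.8 and 18.2 FPKM to 28.5, 30.9 and 28.4 FPKM, and Solyc04g016480.3, from 11.5, 12.4 and 11.6 FPKM to 15.5, 16.6 and 16.7 FPKM. Their log2 fold changes were 0.69 and 0.43 (SE 0.10 and 0.09). The annotation of Solyc04g016480.3 also names a calcineurin-like phosphoesterase domain, so its place among the IQD genes is uncertain. The largest IQD falls were in Solyc08g062940.4 and Solyc08g014280.3. The first had 5.46, 7.10 and 6.71 FPKM in control and 2.76, 2.72 and 2.65 FPKM in weighted stems (log2 fold change -0.99, SE 0.11). The second had 84.4, 98.0 and 85.1 FPKM in control and 45.8, 44.8 and 52.1 FPKM in weighted stems (log2 fold change -0.89, SE 0.10, limma adjusted p = 0.000606). No library of these 4 genes crossed between the groups. The other 7 tested IQD genes fell by 0.38 to 0.85 on the log2 scale, and Solyc06g052010.2, at 0.15 to 1.44 FPKM, was not tested.

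Myosins walk on actin with calmodulin-like light chains bound to their IQ motifs. The 6 h table held 3 myosin genes. Among them Solyc01g081540.4 (myosin-17) rose from 26.9, 22.7 and 29.0 FPKM to 47.0, 42.9 and 44.6 FPKM (0.76 ± 0.11 as log2 fold change with SE, limma adjusted p = 0.00128). The myosin-2-like gene Solyc07g063590.4 fell by 0.57 and Solyc10g006810.4 by 0.49. Both spindle genes fell. Among them Solyc02g080400.3 went from 9.59, 9.20 and 8.82 FPKM to 3.63, 5.02 and 5.02 FPKM (log2 fold change -0.89, SE 0.13), and the abnormal spindle-like gene Solyc02g080390.2 fell by 0.66. Solyc02g080400.3 is named only Uncharacterized protein and was placed here by its domains, which are those of Solyc02g080390.2. The identifiers lie close together, and reads shared between the spindle genes could make their values uncertain. A fall of 0.82 was seen in Solyc12g014130.2, which has an IQ motif and no other named domain. Solyc03g121760.3, whose only further entry is a P-loop nucleoside triphosphate hydrolase, fell by 0.75. The gene of a calmodulin-binding transcription activator of the CAMTA family, Solyc01g060140.4, fell by 0.31. A gene of a BAG domain co-chaperone, Solyc01g095320.4, had 415, 341 and 545 FPKM in control and 193, 161 and 234 FPKM in weighted stems (log2 fold change -1.13, SE 0.20, limma adjusted p = 0.00247). Its digits in the table had run together and were regrouped, so its values depend on that reading.

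The 10 day table held 12 of the 79 genes, 7 EF-hand proteins and 5 IQ motif genes. At 10 days after the clamp was removed, 9 of them were higher in weighted than in control stems, among them 4 myosin genes and 2 kinase genes, and 3 were lower. All 12 passed limma, against 99.7% of the 1114 genes tested, which again follows from how the table was selected. Over all tested genes 51.8% rose, 47.9% fell, and the median log2 fold change was 0.35, against a median of 0.48 in these 12. The groups did not overlap in any of the 12, against 97.8% of all tested genes (51.6% with all weighted libraries higher, 46.1% with all lower). Values of 8 of the 12 moved by over 1.5 times under 1 or both scalings, without a change of sign, for example from 0.38 to 0.63 with equalised totals and to 0.19 with median ratios for Solyc02g038812.1. The summed xylem markers were also higher in weighted stems at 10 days, as given above. Those markers come from the same selected tables, and a link with the 12 genes was not tested.

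All 4 myosins of this table rose at 10 days. Myosin-6 (Solyc06g008090.3) had 6.03, 4.27 and 5.53 FPKM in control and 8.29, 7.47 and 8.94 FPKM in weighted stems at 10 days (log2 fold change 0.56, SE 0.14, limma adjusted p = 0.0062). Its 6 h values all lay between 5.56 and 6.16 FPKM. Myosin-15 (Solyc08g061500.3) had 6.91, 6.44 and 6.78 FPKM in control and 10.5, 8.46 and 8.98 FPKM in weighted stems at 10 days, against 3.99 to 5.18 FPKM at 6 h. Its log2 fold change at 10 days was 0.42 (SE 0.11, limma adjusted p = 0.00802). The low myosin gene Solyc08g061520.3 went from 1.30, 1.61 and 1.17 FPKM to 5.14, 2.79 and 2.77 FPKM, with weighted replicate 1 well above the others (log2 fold change 0.92, SE 0.21, limma adjusted p = 0.00491), and lay between 1.33 and 1.97 FPKM at 6 h. The fourth, Solyc09g064200.4, had 11.01, 7.78 and 8.71 FPKM in control and 16.1, 14.1 and 13.3 FPKM in weighted stems at 10 days (log2 fold change 0.62, SE 0.14, limma adjusted p = 0.00503). At 6 h this gene had 22.6, 18.6 and 24.9 FPKM against 25.7, 28.3 and 25.4 FPKM, a difference that did not pass (0.26, limma adjusted p = 0.141). The identifiers of Solyc08g061500.3 and Solyc08g061520.3 lie close together, and reads shared between such genes could make their values uncertain.

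Both kinase genes of the 10 day table rose. Calcium-dependent protein kinase 29 (Solyc04g081910.4) had 11.4, 10.9 and 11.7 FPKM in control and 20.0, 17.2 and 13.9 FPKM in weighted stems (log2 fold change 0.53, SE 0.14, limma adjusted p = 0.00681). At 6 h it had 18.8, 12.1 and 17.1 FPKM in control and 11.1, 14.5 and 12.9 FPKM in weighted stems, and the groups overlapped. The unnamed kinase Solyc08g008170.4 had 22.0, 15.9 and 19.5 FPKM in control and 27.7, 26.0 and 31.6 FPKM in weighted stems at 10 days (log2 fold change 0.56, SE 0.13, limma adjusted p = 0.0059). Its 6 h values ran from 16.3 to 18.2 FPKM over both groups. EH domain-containing protein 2 (Solyc02g038812.1) rose from 5.67, 4.78 and 5.45 FPKM to 7.62, 7.22 and 6.73 FPKM (log2 fold change 0.38, SE 0.11, limma adjusted p = 0.0104). At 6 h it had 7.95, 8.23 and 8.92 FPKM against 9.46, 9.74 and 9.19 FPKM, without overlap but short of the threshold (0.16, limma adjusted p = 0.16).

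Among the 3 genes that fell, the small EF-hand gene Solyc01g058720.4 changed most. It had 17.6, 43.4 and 34.5 FPKM in control and 13.2, 11.7 and 8.43 FPKM in weighted stems at 10 days. The weighted mean was 2.87-fold lower (log2 fold change -1.37, SE 0.31, limma adjusted p = 0.00495), with control replicate 1 close to the weighted range. Its 6 h libraries, from 49.0 to 80.6 FPKM, overlapped between the groups. A second small EF-hand gene, Solyc02g065000.1, went from 48.6, 40.2 and 43.7 FPKM to 26.7, 27.2 and 29.0 FPKM (log2 fold change -0.65, SE 0.10, limma adjusted p = 0.00253). Its 6 h values were 31.0, 32.4 and 24.2 FPKM in control and 33.7, 33.5 and 27.0 FPKM in weighted stems.

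Only 3 of the 79 genes stood in both tables, and all 3 changed in opposite directions at the 2 times. The tables shared 372 genes in all, and how many of those changed in opposite directions was not counted. The phospholipase C gene Solyc06g007120.3 had 36.2, 31.2 and 44.1 FPKM in control and 21.3, 22.9 and 21.6 FPKM in weighted stems at 6 h, a fall of 0.72 on the log2 scale (SE 0.13). At 10 days it had 23.9, 19.9 and 18.6 FPKM in control and 32.9, 29.9 and 27.0 FPKM in weighted stems, a rise of 0.51 (SE 0.12, limma adjusted p = 0.00582). Solyc12g014130.2, which has an IQ motif and no other named domain, went from 20.1, 24.9 and 23.5 FPKM to 14.6, 11.5 and 11.5 FPKM at 6 h (log2 fold change -0.82, SE 0.13). Its 10 day values were 59.9, 50.8 and 61.3 FPKM in control and 80.0, 80.8 and 74.2 FPKM in weighted stems (0.45 ± 0.10 as log2 fold change with SE, limma adjusted p = 0.00448). The tandem-pore potassium channel gene Solyc02g071140.3 moved the other way, from 4.65, 5.14 and 5.04 FPKM up to 8.70, 7.45 and 7.23 FPKM at 6 h (0.56, SE 0.10). At 10 days it went from 7.0, 7.17 and 8.07 FPKM down to 5.42, 5.83 and 5.53 FPKM (-0.35, SE 0.10, limma adjusted p = 0.0115). This last call ended without control replicate 3 at 10 days (limma adjusted p = 0.0545) and with library totals equalised (-0.09, limma adjusted p = 0.526).

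**Figure D4:**
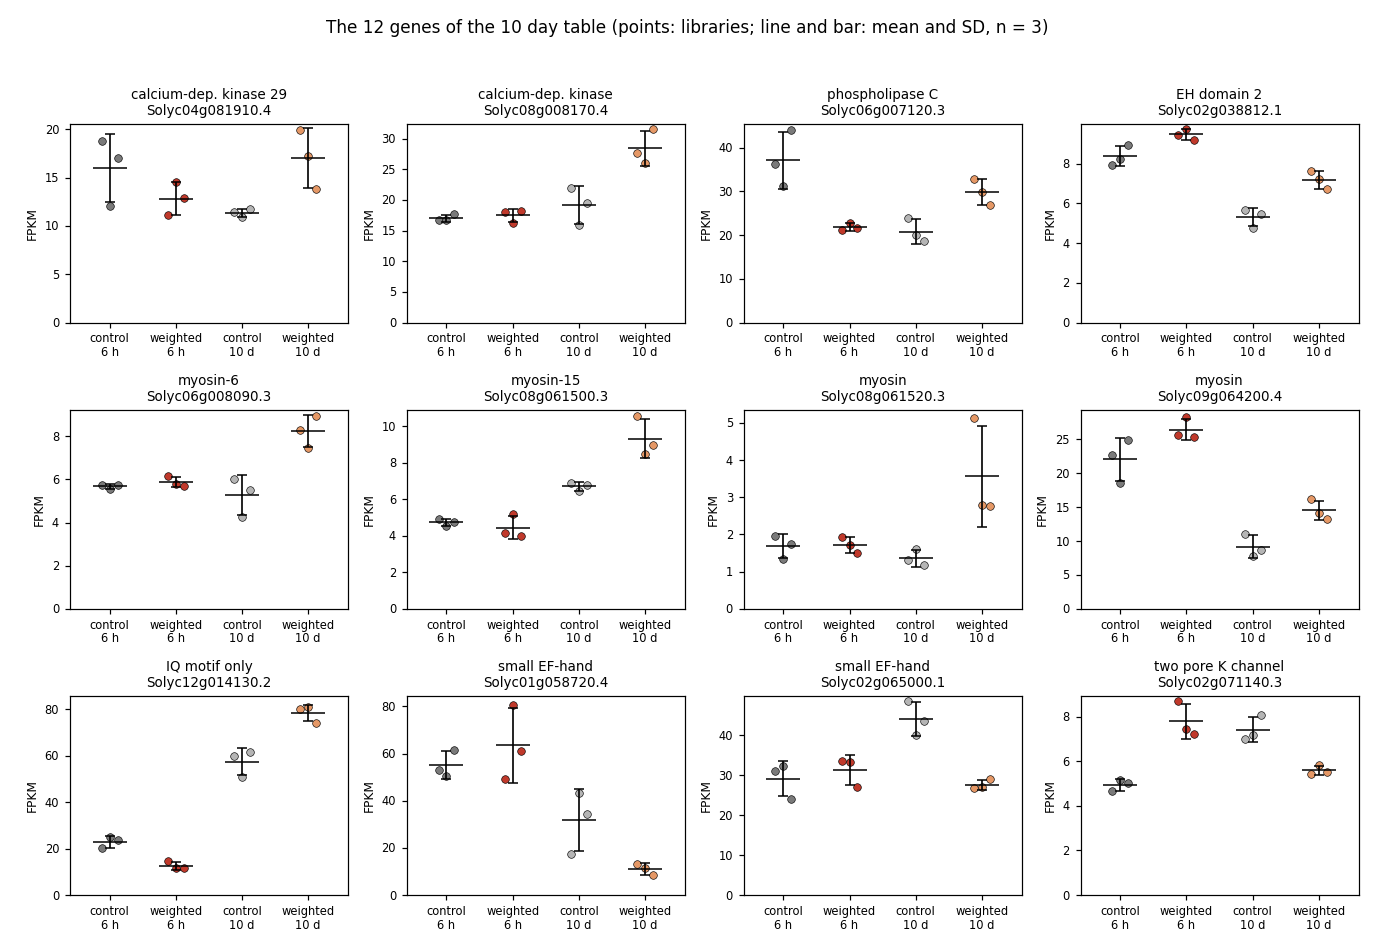
FPKM in each library for the 12 genes of the 10 day table by group; points are libraries, lines the group means and bars the SD (n = 3), each panel from 0. At 10 days weighted stems lie above control stems in 9 panels and below in the small EF-hand and channel panels, without overlap.

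None of the 61 genes of the 6 h table that were tested at 10 days passed in limma, nor did any of the 4751 genes tested (0%), while 10 of the 61 and 784 of all tested genes (16.5%) had an unadjusted p under 0.05. Log2 fold changes ran from -0.72 to 0.51 and their median was 0.02, against 0.04 over all tested genes. Weighted and control libraries did not overlap in 15 of the 61 genes (24.6%), near the 23.6% of all tested genes (14.1% higher, 9.51% lower). The 3 genes of both tables were called at 10 days when adjusted over the 10 day table and not over the 6 h table, where their adjusted p ran from 0.16 to 0.215. In the reverse direction, 3 of the 12 genes of the 10 day table were called at 6 h, 1 higher and 2 lower, against 27.4% of the 1085 genes tested (13.8% higher, 13.5% lower), and these are the same 3 genes of both tables. With library totals equalised the count was 3 higher and 2 lower.

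A test of the difference between the load contrasts at 10 days and at 6 h, over all 12 libraries, passed for 26 of 65 tested genes of the 6 h table. That share of 40% lies below the 46.7% of all 5118 genes tested, of which 25.1% had positive and 21.6% negative values. In 21 of the 26 the gene had fallen at 6 h and the contrast at 10 days was higher, and in the other 5 it had risen at 6 h and the contrast at 10 days was lower. The genes were selected on the 6 h contrast, so this direction is partly set by the selection. Of the 24 with both contrasts tested, 20 had log2 fold changes of opposite sign at the 2 times. Selection at 6 h and a called difference both favour opposite signs, and the share over all tested genes was not counted. None of the 24 was called at 10 days in the 6 h table. By kind, 13 of 43 EF-hand proteins and 13 of 22 IQ motif genes passed. The largest value was that of the IQD gene Solyc09g082560.4 (-2.30, SE 0.41, limma adjusted p = 0.00258), followed by the EH domain gene Solyc11g012020.2 (1.5, SE 0.29, limma adjusted p = 0.00348). None of the 8 tested kinases and neither calmodulin passed. Calmodulin values of -0.43 and -0.41 had limma adjusted p of 0.069 and 0.0585. At an unadjusted limma p under 0.05 both calmodulins and 1 of the 8 kinases passed, against 56.8% of all tested genes.

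**Figure D5:**
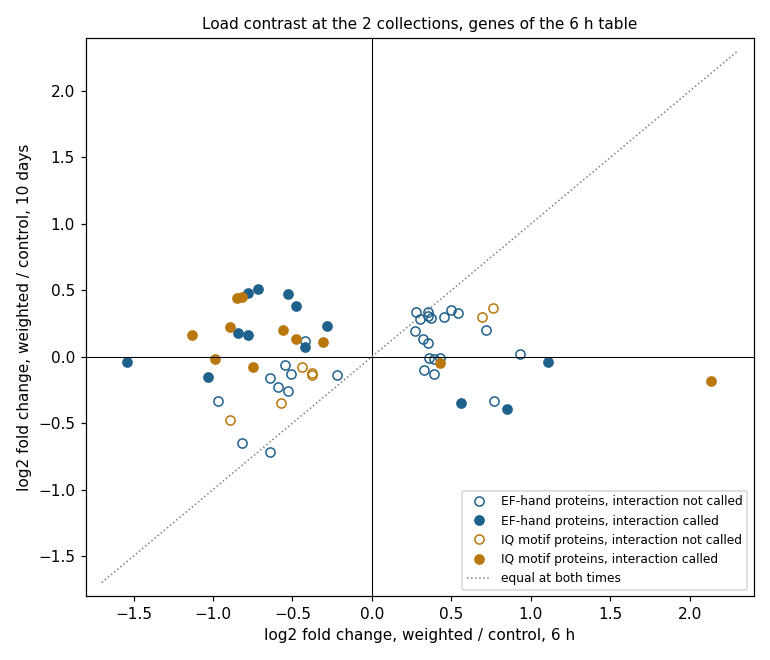
Log2 fold change of weighted over control stems at 6 h (horizontal) and at 10 days (vertical) for the 60 genes of the 6 h table tested at both times; filled points passed the test of the difference between the times, open points did not, and the dotted line marks equal changes. Points spread from -1.54 to 2.13 along the horizontal axis and only from -0.72 to 0.51 along the vertical axis.

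Between the collections log2 fold changes spanned a wider range, from -3.84 to 4.38 in control stems. In control stems 48 of 64 tested genes differed between 10 days and 6 h (75%, against 65.9% of the 4979 genes tested), 18 higher and 30 lower at 10 days (27.4% and 38.5% of all tested). With libraries scaled by median ratios the split was 22 higher and 24 lower. In weighted stems 50 of 63 differed (79.4%, against 79.3% of 5038), 21 higher and 29 lower (32.5% and 46.8% of all tested). These comparisons share the 6 h and 10 day libraries with the load contrasts.

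The extremes in control stems were both small EF-hand genes. Solyc01g111040.4 went from 7.33, 5.29 and 10.7 FPKM at 6 h to 151, 223 and 162 FPKM at 10 days, 23.0-fold higher (log2 fold change 4.38, SE 0.26, limma adjusted p = 3.89e-05). In weighted stems the same gene went from 16.1, 12.9 and 14.0 FPKM to 161, 144 and 105 FPKM. Solyc06g073830.1 went from 61.1, 36.6 and 61.7 FPKM to 0.36, 6.40 and 3.90 FPKM in control stems, 14.9-fold lower (log2 fold change -3.84, SE 0.61, limma adjusted p = 0.00159). Without control replicate 2 at 10 days the fold was 24.9. Its weighted libraries went from 79.2, 77.4 and 102 FPKM to 2.73, 2.41 and 4.91 FPKM.

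The kinases were mostly lower at 10 days. In control stems 7 of 8 tested kinases fell and none rose, and in weighted stems 6 fell and none rose. Log2 fold changes ran from -1.36 to 0.35 and from -0.88 to 0.09. Over all tested genes 38.5% were lower and 27.4% higher in control stems, and 46.8% lower and 32.5% higher in weighted stems. With median-ratio scaling the falls of Solyc05g056570.3 and Solyc11g018610.2 in control stems were not called (limma adjusted p of 0.106 and 0.0615). Both calls also ended with the replicate block (0.079 and 0.0574), without each control library at 6 h in turn and without control replicate 3 at 10 days (limma adjusted p from 0.0602 to 0.134). In weighted stems the fall of Solyc05g056570.3 was likewise not called with median-ratio scaling (-0.22, limma adjusted p = 0.13). Calmodulin Solyc11g072240.2 fell by 0.76 in control and by 1.19 in weighted stems. The second calmodulin fell by 0.68 in weighted stems, while its difference of -0.27 in control stems did not pass. Spindle and condensin genes fell in control stems by 1.58, 1.59 and 1.68 on the log2 scale.

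Other genes were higher at 10 days. The BAG domain gene stood at 1885, 2487 and 2189 FPKM in control and at 3192, 2388 and 1893 FPKM in weighted stems at 10 days, the highest values of the 79 genes. In control stems it rose by 2.35 on the log2 scale (SE 0.20, limma adjusted p = 0.000119). The phospholipase C gene Solyc05g052760.4 rose by 1.78, the IQD genes Solyc03g083100.3 and Solyc06g053450.4 by 1.95 and 1.02, and the CAMTA gene by 1.0. Of the genes named for the load at 6 h, Solyc11g012020.2 fell in control stems to 7.41, 3.44 and 4.41 FPKM at 10 days, a level under that of weighted stems at 6 h (-2.20 ± 0.25 as log2 fold change with SE, limma adjusted p = 0.00041). The KIC type gene Solyc10g006740.4 fell likewise to 3.82, 5.11 and 3.99 FPKM (-1.86, SE 0.15). The NADH:ubiquinone reductase gene rose in control stems to 15.2, 23.5 and 13.8 FPKM (1.09, SE 0.30, limma adjusted p = 0.0158), and in weighted stems the 10 day values of 18.7, 19.0 and 12.7 FPKM did not differ beyond their spread from those at 6 h (-0.06, limma adjusted p = 0.74).

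Other genes of calcium signalling, chosen from annotation text as channels, pumps and exchangers, calcineurin B-like partner kinases, calmodulin-binding proteins and annexins, numbered 48. Of the 43 tested at 6 h 15 rose and 28 fell, at a median log2 change of -0.42. Over all genes tested 47.9% rose, 51.4% fell and the median was -0.27, and that all 43 passed follows again from the selection of the table. By role, 5 of 12 partner kinases, 3 of 7 channels, 4 of 12 pumps and exchangers, 3 of 9 calmodulin-binding proteins and 0 of 3 annexins rose, and all others fell. The largest rises were in the partner kinase gene Solyc08g067310.1, from 1.54, 2.16 and 3.04 FPKM to 7.35, 7.75 and 7.52 FPKM (1.42, SE 0.17), and the partner kinase gene Solyc01g008850.3, from 107, 75.7 and 116 FPKM to 215, 210 and 218 FPKM (1.12, SE 0.16). The cyclic nucleotide-gated channel gene Solyc02g088560.4, of a family that lets calcium into the cell, went from 24.3, 22.7 and 22.7 FPKM to 50.7, 47.6 and 53.4 FPKM (1.09, SE 0.08, limma adjusted p = 0.000243). The largest falls were in the partner kinase gene Solyc10g085440.1, from 7.10, 12.1 and 12.02 FPKM to 3.90, 2.47 and 6.22 FPKM (-1.17, SE 0.30), and in 2 annexin genes, whose products bind membranes in the presence of calcium. Annexin Solyc01g097510.4 went from 43.9, 40.0 and 36.9 FPKM to 18.6, 14.2 and 20.0 FPKM (-1.16, SE 0.14). The more abundant Solyc01g097520.4 went from 269, 204 and 302 FPKM to 127, 108 and 160 FPKM (-0.97, SE 0.19). Both annexin genes stood higher at 10 days, from 77.5 to 130 FPKM and from 355 to 837 FPKM, and in both each weighted library lay above each control library. Both stand in the 10 day table, so this separation follows from how that table was selected. Of all its tested genes 97.8% had groups that did not overlap at 10 days.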

How the data were processed

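Stem RNA was measured in 4 groups of 3 libraries. The labels' protocols name HISAT for alignment to the genome and Bowtie2 for alignment to genes, without versions, and the sources used here give neither genome build nor annotation. The authors deposited FPKM values in 2 tables, with their own log2 ratios and Q values, which served as checks. Field separators and decimal marks were swapped in the 6 h table. Both were restored by script, and for 89 of 5346 genes run-together digits were regrouped by small within-group spread and by the authors' deposited log2 ratios. Where a value stood in both tables (4464 cases), the copies disagreed beyond 0.005 FPKM in 71, always through a zero lost after the decimal mark. Among the 79 genes described, 1 was regrouped and 11 values in 8 genes may have lost such a zero. Against those of the authors' log2 ratios that could be read, recomputed ratios had a correlation across genes of 1.0000 (3910 genes, 6 h) and 0.9996 (908 genes, 10 days). The first is not independent for regrouped genes.

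Low values did not resolve into whole reads (21.6% of those in the table for 6 h and 22.9% in that for 10 days were whole multiples of the gene's lowest value, to a tolerance of 0.005 FPKM), so depth stays unknown and counting intervals are left out. Tests were run on log2(FPKM + 1), where 3 or more libraries of the comparison reached 1 FPKM, with limma 3.58.1 in R 4.3.3 (empirical Bayes with trend, two-sided). P-values were adjusted by Benjamini-Hochberg over all genes tested in the table and called under 0.05. Fold changes are on this scale and understate changes of low genes. Fits used the 6 libraries of the comparison, or all 12 for the difference between times. Exact permutation of 3 against 3 libraries has a smallest p of 0.1 and was not used. The fits were tested on simulated data. Tables and figures were made in Python 3.11.15 with matplotlib 3.10.9, numpy 2.4.6 and pandas 2.3.3.

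Values per library are given for all oxidases, for up to 4 called rises and 4 called falls at 6 h per class whose higher group mean reached 5 FPKM, for all genes of the 10 day table, and for up to 3 rises and 3 falls of the other calcium genes. EF-hand proteins without a class and IQ motif genes counted as separate classes. The genes and lists were chosen with earlier results of these data known. Of the 79 identifiers 0 matched the reference gene table, so no positions are given, and no sequences were used here. Alternatives were other pseudocounts (0.1 and 0.5), other filters (none, or 5 FPKM), 2 scalings, the replicate number as a block, regrouped genes left out and each library left out.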

Additional observations from a re-analysis of the deposited data

Results flagged for a closer look

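The load contrast differed between the collections by the test of the difference itself (contrast at 10 days minus contrast at 6 h, limma adjusted p under 0.05) for 15 of the genes given in every library. Over all 5118 genes tested 46.7% passed the same test, as did 40% of the 65 tested genes described here. The flagged genes are therefore not set apart from the rest by passing. All were selected for a difference at 6 h, and no explanation was tested.

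Among genes that had risen at 6 h, the value was -2.30 for the IQD gene Solyc09g082560.4, -1.23 for the small EF-hand gene Solyc01g111040.4, -1.15 for the NADH:ubiquinone reductase gene Solyc02g079170.3, -0.91 for the tandem-pore potassium channel gene Solyc02g071140.3 and -0.48 for the IQD gene Solyc04g016480.3.

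Among genes that had fallen, it was 1.5 for the EH domain gene Solyc11g012020.2, 1.30 for the BAG domain gene Solyc01g095320.4, 1.27 for the IQ motif gene Solyc12g014130.2, 1.23 for the phospholipase C gene Solyc06g007120.3 and 0.88 for the KIC type gene Solyc10g006740.4. The IQD genes Solyc08g014280.3 and Solyc08g062940.4 had 1.11 and 0.98.

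Of the oxidases, the unnamed gene Solyc06g068690.4 had 1.26, the E-like gene Solyc07g042460.2 had 1.02 and homolog D, Solyc06g068680.3, had 0.51. Leaving out each of the 12 libraries in turn ended the call in 9 cases for the E-like gene, in 8 for homolog D, in 7 for Solyc04g016480.3 and in 3 for Solyc02g079170.3.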

How the results depend on the processing

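Counts of called genes stayed within 1.5 times of those reported under all alternatives run, with 1 exception: genes of the 10 day table called at 6 h numbered 3, and 5 with library totals equalised. Leaving out each library in turn gave 55 to 61 calls at 6 h in the 6 h table, 11 to 12 at 10 days in the 10 day table, 0 at 10 days in the 6 h table and 2 to 3 at 6 h in the 10 day table. It gave 37 to 47 calls between control stems, 45 to 49 between weighted stems and 19 to 29 for the difference between times. No called log2 fold change of a gene given in every library changed sign, over 218 values and 3263 refits, of which 93 lost a call and 24 gained one.

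Most losses fell on few calls: the kinase Solyc02g090510.3 at 6 h, the oxidase homolog D at 6 h and between times, the kinases Solyc11g018610.2 and Solyc05g056570.3 between control stems, the IQD gene Solyc04g016480.3 and, for the difference between times, the E-like oxidase, which lost its call in 13 refits (limma adjusted p from 0.0504 to 0.109). Scaling by median ratios moved the median of all genes by 0.16 between control and 0.22 between weighted stems, and by -0.20 at 10 days in the 10 day table. Equalised totals moved the latter by 0.28, and by 0.22 at 6 h in that table. The 5 FPKM filter moved the latter table's 10 day median by -0.59, through the genes it left out.

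Same-numbered libraries deviated together (r over 0.1) in 3 of 18 pairs, so the numbers gave no consistent pairing. Some deviations at 10 days were shared across numbers. Control replicate 2 deviated with weighted replicates 1 and 2 (r of 0.55 for each) and against weighted replicate 3 (r of -0.63). The source of these deviations was not tested. With the replicate number as a block the counts were 58, 12, 0, 2, 42, 49 and 23 in the order given above. Depth is unknown, so counting error cannot be given for genes under 1 FPKM.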
